A study of Mus musculus with 6 samples.

Results

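Border macrophages are the resident macrophages of the meninges, the perivascular spaces and the choroid plexus, and 10 genes that are widely used to mark them were followed here through 6 spinal cords: Cd163, Mrc1, Pf4, Ms4a7, Lyve1, Mgl2, Stab1, F13a1, Cbr2 and Folr2. The genes were taken by name as a fixed list, and all 10 were found by symbol among the 54532 genes of the files. The tissue was whole cervical spinal cord, and all mice were of the C57BL/6 strain. For a dermatitis like psoriasis, 3 mice had received 50 mg of cream with 5% imiquimod, an agonist of Toll-like receptor 7, once daily over 2 days on the shaved nape. In the 3 control mice the same mass of vehicle cream was applied in the same way. Each library was 1 biological replicate, and the labels name no transgene or deletion and give no age.

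Border macrophages are maintained alongside microglia but lie outside the parenchyma, next to vessels, meningeal fibroblasts and nerve roots, where they take up proteins, lipids and debris through scavenger receptors and lectins. Microglia express little of these genes in the steady state. Blood monocytes that enter the tissue can also acquire some of them, so the genes mark a location and a state and not only a lineage. Several are shared with other cells: Pf4 and F13a1 with platelets and megakaryocytes, F13a1 with monocytes, Lyve1 with lymphatic endothelium, Stab1 with some endothelium and Mgl2 with dendritic cells.

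Of the 10 genes, 4 were lower in the imiquimod cords (Cd163, Mrc1, Pf4 and Mgl2) and 1 was higher (Ms4a7). Levels are given as FPKM, the deposited fragments per kilobase of exon at equal library size, which allows genes to be compared. Calls are from limma on log2(FPKM + 0.1), fitted over every gene with a mean of at least 0.5 FPKM in either group, with a Benjamini-Hochberg adjusted p under 0.05. Among all 16513 genes tested, 14.1% were called, 8.74% as higher and 5.34% as lower (1444 and 882 genes, but 1335 and 1287 under quantile normalization). Of the 9 genes of the set that were tested, 4 were not called, and Folr2 was too low to enter. Cd163, Mrc1, Lyve1 and Mgl2 passed the filter on the vehicle mean alone and Ms4a7 on the imiquimod mean alone, so the counts among tested genes lean toward those that differ. With no filter, 8 of the 10 log2 changes lay below 0 with a median of -1.14, beside -0.01 over all 31740 genes with a value above 0 in any library, and 1 gene was called lower (Mgl2) and 1 higher (Ms4a7). In 4 genes every imiquimod library lay below every vehicle library, as in 18.0% of the genes tested, and in 2 (Ms4a7 and Stab1) every one lay above, as in 19.8%.

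The stretches upstream of the 5 called genes are shown because these genes moved in opposite directions in the same cords. Each is the 250 bases before a start site annotated by RefSeq on GRCm38.p6 (the mm10 assembly), 5′ to 3′ on the strand of the gene, and the capitals mark matches to motifs searched on both strands. Ms4a7 has 2 annotated starts.
Cd163, chr6:124304401-124304650, plus strand: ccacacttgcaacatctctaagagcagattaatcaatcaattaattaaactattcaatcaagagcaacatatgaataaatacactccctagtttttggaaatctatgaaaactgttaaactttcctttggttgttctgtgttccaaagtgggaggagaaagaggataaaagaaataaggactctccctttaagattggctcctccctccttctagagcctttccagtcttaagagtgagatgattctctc
Mrc1, chr2:14229164-14229413, plus strand: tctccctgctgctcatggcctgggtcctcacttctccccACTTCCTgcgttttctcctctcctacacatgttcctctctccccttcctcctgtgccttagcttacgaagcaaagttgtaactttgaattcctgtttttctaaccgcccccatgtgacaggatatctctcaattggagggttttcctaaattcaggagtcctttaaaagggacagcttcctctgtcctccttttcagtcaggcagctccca
Pf4, chr5:90772185-90772434, plus strand: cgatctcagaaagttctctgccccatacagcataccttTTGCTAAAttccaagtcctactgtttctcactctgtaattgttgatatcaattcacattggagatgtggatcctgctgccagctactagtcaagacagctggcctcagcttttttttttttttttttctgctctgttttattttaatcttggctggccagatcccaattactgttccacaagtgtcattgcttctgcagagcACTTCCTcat
Mgl2, chr11:70130107-70130356, plus strand: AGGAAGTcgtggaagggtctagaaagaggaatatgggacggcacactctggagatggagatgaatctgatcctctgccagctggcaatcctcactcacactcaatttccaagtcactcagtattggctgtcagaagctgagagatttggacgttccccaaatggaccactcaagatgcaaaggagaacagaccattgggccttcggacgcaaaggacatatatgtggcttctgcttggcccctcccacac
Ms4a7, inner start, chr19:11334696-11334945, minus strand: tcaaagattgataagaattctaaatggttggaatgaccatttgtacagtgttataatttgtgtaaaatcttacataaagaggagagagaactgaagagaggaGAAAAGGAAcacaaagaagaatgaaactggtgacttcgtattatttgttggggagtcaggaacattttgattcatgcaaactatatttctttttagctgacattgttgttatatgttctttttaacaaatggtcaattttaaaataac
Ms4a7, outer start, chr19:11336147-11336396, minus strand: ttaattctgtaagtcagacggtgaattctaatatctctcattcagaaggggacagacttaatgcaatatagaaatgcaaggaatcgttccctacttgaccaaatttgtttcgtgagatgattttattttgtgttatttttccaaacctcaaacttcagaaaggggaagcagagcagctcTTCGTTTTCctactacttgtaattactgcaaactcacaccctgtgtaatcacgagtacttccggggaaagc

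An interferon regulatory factor type motif, GAAANNGAA, lay 148 bases before the inner and 71 bases before the outer start of Ms4a7. It was also in a window of Folr2, which was not tested, 23 bases before the start, and in no window of the other 7 genes, and 7.13% of the 32851 RefSeq windows of this length hold it. A PU.1 type motif, AGGAAGT, lay 211 bases before the start of Mrc1, 10 before that of Pf4 and 250 before that of Mgl2, and it was also in a window each of F13a1 and Folr2, which were not called, and 7.69% of windows hold it. A C/EBP type motif, TTGCNNAA, lay 212 bases before the start of Pf4 and is in 9.56% of windows. The searched MAF type motif, TGCTGAC (3.81% of windows), and STAT type motif, TTCNNNGAA (7.02%), were in none of the 12 windows of the 9 genes of the set that the table held. A match describes letters in these windows and says nothing about binding.

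Markers of meningeal and root cells, the neighbours of border macrophages, differed between libraries of the same group. The vehicle libraries gave 18174411 to 20672881 recovered fragments and the imiquimod libraries 21242415 to 23200996. The 16 meningeal fibroblast markers summed to 104, 172 and 124 FPKM in the vehicle libraries and to 132, 48.0 and 270 FPKM in imiquimod libraries 1, 2 and 3 (two-sided exact permutation p = 0.8, adjusted p = 0.9 over 18 lists). Imiquimod library 3 lay above every vehicle library in 13 of the 16 markers and imiquimod library 2 below every one in 15. The 7 Schwann cell markers of the nerve roots used here had a mean log2(FPKM + 0.1) of 3.85, 3.79 and 4.18 in the vehicle libraries and 3.50, 2.41 and 3.83 in imiquimod libraries 1, 2 and 3, where imiquimod library 2 was the lowest. Their summed FPKM, most of it from Mal, which oligodendrocytes also express, was 600.2, 577 and 595 against 507, 477 and 463, with imiquimod library 3 the lowest. In 9 of the 10 border macrophage genes the imiquimod libraries stood in the order 3, 1, 2 from high to low, the order of all 16 fibroblast markers and of 15.6% of all tested genes. Among other lists it was the order of 12 of 24 further border macrophage genes, 6 of 9 monocyte genes and 5 of 12 pan-macrophage genes.

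**Figure D1:**
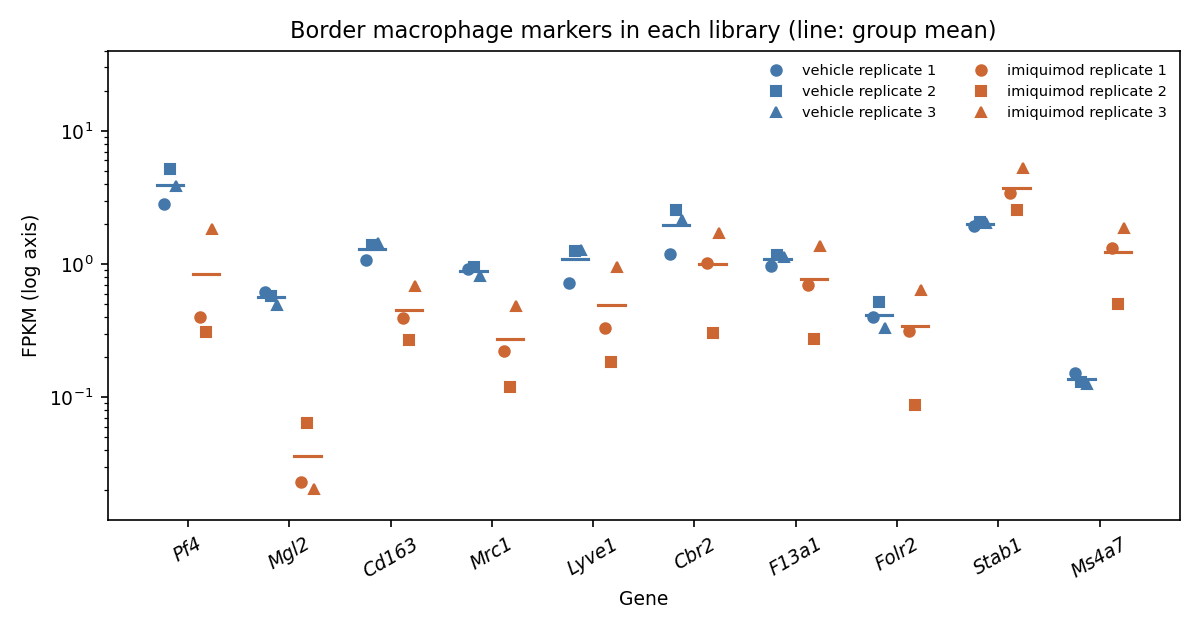
FPKM (log axis) of the 10 border macrophage genes in the 3 vehicle (blue) and 3 imiquimod (orange) libraries, with a line at each group mean. Pf4, Mgl2, Cd163 and Mrc1 separate with the imiquimod libraries below, Stab1 and Ms4a7 with the imiquimod libraries above, and imiquimod library 2 is the lowest of its group in every gene but Mgl2.

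Because of this spread, each result was also computed without imiquimod library 2 and with the mean log2 level of the fibroblast markers as a covariate. With the covariate, Cd163 was lower by -1.32 ± 0.20 on the log2 scale (SE, limma adjusted p = 0.00971), Mrc1 by -1.41 ± 0.27 (0.0192), Pf4 by -2.22 ± 0.32 (0.00749) and Mgl2 by -2.33 ± 0.47 (0.0229), and Ms4a7 was higher by 2.48 ± 0.30 (0.00462). These differences were about as large as those without the covariate. The covariate was 1.53, 2.29 and 1.80 in the vehicle and 1.82, -0.06 and 3.03 in the imiquimod libraries. All vehicle values thus lay within the imiquimod range. The shift that a covariate makes in a group difference is its slope times the difference between its group means. That difference was small beside the spread of the covariate among the imiquimod libraries. The fit therefore had little room to change the size of a group difference. The part of meningeal content in the calls was not tested. Without imiquimod library 2, Mrc1 (-1.20, limma adjusted p = 0.0546) and Pf4 (-1.99, 0.0616) were no longer called, whereas Cd163 (-1.16, 0.0371), Mgl2 (-2.44, 0.0179) and Ms4a7 (2.83, 0.00492) were. Fewer cells of a type and less RNA per cell cannot be told apart in whole tissue.

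The scavenger receptor Cd163, which takes up complexes of haptoglobin and hemoglobin, lies at chr6:124304656-124330527 of mm10 on the plus strand. It was at 1.07, 1.40 and 1.44 FPKM in the vehicle libraries and at 0.391, 0.270 and 0.687 FPKM in the imiquimod libraries. The highest imiquimod library was below the lowest vehicle library. The means were 1.30 ± 0.206 and 0.449 ± 0.214 FPKM (SD, n = 3 each), a log2 change of -1.41 ± 0.31 (SE, limma adjusted p = 0.0286), from 390 fragments in the vehicle and 165 in the imiquimod libraries together. The call was lost when vehicle library 1, 2 or 3 or imiquimod library 1 was left out (limma adjusted p = 0.0736, 0.1005, 0.105 and 0.0742) and with no filter on low values (0.0577).

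Mrc1, the mannose receptor CD206, binds mannose-bearing glycoproteins and is the most used marker of border macrophages. Its locus is chr2:14229392-14332057, plus strand. The vehicle libraries held 0.914, 0.957 and 0.811 FPKM and the imiquimod libraries 0.221, 0.119 and 0.482 FPKM, again with no overlap. The mean fell from 0.894 ± 0.0752 to 0.274 ± 0.187 FPKM, and the log2 change was -1.53 ± 0.39 (limma adjusted p = 0.0459). This call was lost without each library but imiquimod 3 (limma adjusted p = 0.149, 0.143 and 0.119 without vehicle 1, 2 and 3, 0.101 and 0.0546 without imiquimod 1 and 2), with a pseudocount of 0.01 (0.0521), with no filter (0.0791) and with the replicate number as a block (0.0913).

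Pf4 encodes the chemokine CXCL4 and lies at chr5:90772435-90773383, plus strand. It had the highest level of the set in the vehicle libraries, at 2.82, 5.19 and 3.83 FPKM, and stood at 0.404, 0.310 and 1.83 FPKM in the imiquimod libraries. Imiquimod libraries 1 and 2 were several times below every vehicle library, and library 3 was nearer to them. The mean was 3.95 ± 1.19 against 0.849 ± 0.853 FPKM, with a log2 change of -2.42 ± 0.57 (limma adjusted p = 0.0359) that rested on 155 and 42 fragments. The call was lost without any 1 library but imiquimod 3 (limma adjusted p = 0.0857, 0.114 and 0.106 without vehicle 1, 2 and 3, 0.101 and 0.0616 without imiquimod 1 and 2) and with no filter (0.0711).

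Platelets carry much Pf4 RNA, so platelet genes were read beside it. Ppbp, the platelet basic protein, neighbours Pf4 and was at 0.939, 3.13 and 1.51 FPKM in vehicle and 0.269, 0.372 and 1.61 FPKM in imiquimod libraries, a log2 change of -1.39 ± 0.65 that did not pass (limma adjusted p = 0.202). Gp9, a subunit of the platelet receptor for von Willebrand factor, was at 0.641, 0.979 and 0.464 against 0.220, 0.203 and 0.290 FPKM, with no overlap, and was not called either (-1.19 ± 0.35, limma adjusted p = 0.0647). The groups overlapped in Gp5 (1.21 ± 0.246 against 1.35 ± 0.304 FPKM, log2 change 0.14 ± 0.22, limma adjusted p = 0.707). They also overlapped in Itga2b (0.652 ± 0.243 against 0.537 ± 0.117 FPKM, -0.21 ± 0.30, limma adjusted p = 0.684). The 10 platelet and megakaryocyte genes summed to 3.92 to 7.45 FPKM in vehicle and 2.49 to 5.18 FPKM in imiquimod libraries (two-sided exact permutation p = 0.3, adjusted p = 0.45). Of the 4 tested, limma called 0 (1 had an unadjusted p under 0.05) and voom called 0. Gp1bb was listed at 0 in all libraries. The part of platelet RNA in the change of Pf4 was not tested.

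The lectin Mgl2 (CD301b), which binds galactose and N-acetylgalactosamine, had the lowest level of the set in the imiquimod cords. Its locus is chr11:70130329-70137550, plus strand. It was at 0.621, 0.577 and 0.488 FPKM, or 23, 21 and 20 fragments, in the vehicle libraries and at 0.0232, 0.0641 and 0.0204 FPKM, or 1, 3 and 1 fragments, in the imiquimod libraries. The summed 64 and 5 fragments give a ratio at equal depth of 0.0642 (exact 95% interval 0.0202 to 0.158, counting error only). On the log2 scale the change was -2.29 ± 0.46 (limma adjusted p = 0.0222), a value that the added 0.1 FPKM holds closer to 0. The call was lost without vehicle library 1, 2 or 3 (limma adjusted p = 0.1255, 0.107 and 0.0863) and with the replicate block (0.0796), and remained with no filter (0.00863).

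With 1, 3 and 1 fragments, the order of the imiquimod libraries in Mgl2 carries no information. Of its distinct stretches of 50 bases, 13.1% also occur in other genes, mainly Clec10a, the gene of the sister lectin, so the split of reads between the pair is uncertain. Clec10a itself was at 0.0195, 0.238 and 0.0529 FPKM in vehicle and 0.0836, 0.185 and 0.323 FPKM in imiquimod libraries, too low to be tested. Itgax, which dendritic cells share with activated microglia, was higher (0.142 ± 0.0988 against 2.97 ± 0.133 FPKM, limma adjusted p = 0.00118). Of the other 7 dendritic cell genes tested, limma called 0 and voom called 1, as lower. At an unadjusted p under 0.05, 2 were lower, Flt3 and Siglech, and Siglech is also in the list of homeostatic microglia genes.

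Ms4a7, a tetraspan membrane protein that marks border macrophages and macrophages that enter the brain, went the other way. It lies at chr19:11321039-11336146, minus strand. The vehicle libraries held 0.152, 0.129 and 0.126 FPKM, or 33 fragments in all, and the imiquimod libraries 1.33, 0.502 and 1.87 FPKM, or 367 fragments. Every imiquimod library was above every vehicle library, and the ratio at equal depth was 9.15 (exact 95% interval 6.40 to 13.5, counting error only). The log2 change was 2.34 ± 0.47 (limma adjusted p = 0.0209), and it was 1.35 in imiquimod library 2 and 3.06 in library 3, each against the vehicle mean. The call was lost without vehicle library 1, 2 or 3 or imiquimod library 1 or 3 (limma adjusted p = 0.066, 0.0644, 0.0668, 0.0736 and 0.0735) and remained with no filter (0.0379).

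Most of the related genes on the same chromosome were higher as well. Of the 8 Ms4a genes in the list of relatives, 6 were called higher: Ms4a4b, Ms4a4c, Ms4a4d, Ms4a6b, Ms4a6c and Ms4a6d. Ms4a6d was at 0.912, 1.33 and 1.30 FPKM in vehicle and 11.6, 7.01 and 15.5 FPKM in imiquimod libraries (3.11 ± 0.29, limma adjusted p = 0.00171), and Ms4a4c, which also marks monocytes, at 0.602 ± 0.242 against 12.1 ± 5.68 FPKM (4.05 ± 0.45, 0.00314). Ms4a4a was at 0.135, 1.58 and 0.795 FPKM against 3.25, 1.18 and 6.07 FPKM, with overlap (2.07 ± 0.82, limma adjusted p = 0.141), and Ms4a8a was too low to test. The calls of Ms4a4b and Ms4a4d were lost when single libraries were left out, with adjusted p of up to 0.0781 (without imiquimod 3) and 0.1353 (without vehicle 1). In the imiquimod cords 6 of these relatives therefore exceeded Ms4a7, whose mean there was 1.23 ± 0.687 FPKM.

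**Figure D2:**
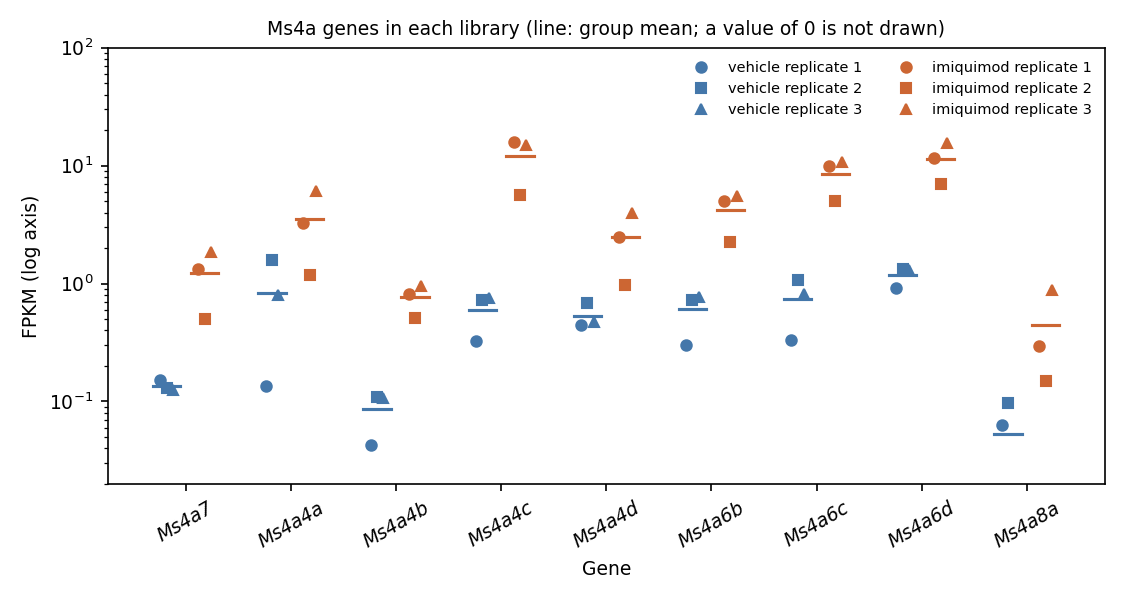
FPKM (log axis) of Ms4a7 and 8 related Ms4a genes in each library, vehicle in blue and imiquimod in orange, with a line at each group mean. All imiquimod libraries lie above all vehicle libraries except in Ms4a4a, where imiquimod library 2 (1.18 FPKM) is below vehicle library 2 (1.58 FPKM).

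Stab1, or stabilin-1, is a large scavenger receptor for oxidised lipoproteins and matrix fragments, at chr14:31139013-31168641, minus strand. It was at 1.94, 2.06 and 2.02 FPKM in the vehicle libraries, a narrow range, and at 3.43, 2.56 and 5.23 FPKM in the imiquimod libraries. The groups did not overlap, and the mean was 2.01 ± 0.0579 against 3.74 ± 1.36 FPKM. The log2 change of 0.81 ± 0.23 did not pass (95% interval 0.25 to 1.36, limma adjusted p = 0.0645). It passed without imiquimod library 2 (1.04, limma adjusted p = 0.0156), with library quality weights (0.0432), with voom on recovered fragments (0.0493), with the fibroblast covariate (0.00425) and with trends on exon length and GC content removed (0.0396). With 1129 and 2580 fragments it was the most deeply read gene of the set. Some endothelium shares Stab1. Of 10 endothelial genes tested, limma called 6 higher and 0 lower, beside 8.74% and 5.34% of all genes tested. At an unadjusted p under 0.05, 1 was lower, and voom called 0 lower. The part of endothelium in the level of Stab1 was not tested.

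The hyaluronan receptor Lyve1 (chr7:110850607-110863239, minus strand) was at 0.716, 1.26 and 1.28 FPKM in vehicle and 0.332, 0.184 and 0.949 FPKM in imiquimod libraries. Imiquimod libraries 1 and 2 were below all vehicle libraries and library 3 was within their range. The log2 change of -1.19 ± 0.50 did not pass (95% interval -2.37 to -0.01, limma adjusted p = 0.162), and passed only without imiquimod library 3 (-1.72, 0.0461) among the alternatives run. Lyve1 also marks lymphatic endothelium, and of 6 genes listed for it 4 were tested, 2 of them higher and 2 lower. Flt4 was higher (0.978 ± 0.103 against 2.02 ± 0.0979 FPKM, limma adjusted p = 0.00525), and the calls of Pdpn (higher, 0.0324), Prox1 (lower, 0.0436) and Reln (lower, 0.0279) were each lost without any 1 vehicle library, with adjusted p of up to 0.1075, 0.146 and 0.096, those of Pdpn and Prox1 also without imiquimod 1 or 3. Ccl21a was listed at 0 in all libraries and Mmrn1 at no more than 0.0686 FPKM. Which cells of the cord the RNA of the 4 tested genes came from was not tested, so their calls are not a measure of lymphatic endothelium.

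Cbr2, a carbonyl reductase found in border macrophages but not in microglia, lies at chr11:120729489-120732114, minus strand. It was at 1.19, 2.56 and 2.16 FPKM against 1.02, 0.303 and 1.70 FPKM, so the groups overlapped (-1.08 ± 0.55, limma adjusted p = 0.236). Of its stretches of 50 bases 12.1% also occur in Gm11771, which makes its level uncertain. With the fibroblast covariate it was called lower (-0.88 ± 0.20, limma adjusted p = 0.033).

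F13a1, the catalytic subunit of the transglutaminase factor XIII (chr13:36867178-37050244, minus strand), was at 0.973, 1.161 and 1.14 FPKM in vehicle and 0.698, 0.272 and 1.36 FPKM in imiquimod libraries. Imiquimod library 3 exceeded every vehicle library and library 2 was the lowest of the 6 (-0.65 ± 0.46, limma adjusted p = 0.388). Folr2, folate receptor beta (chr7:101839988-101857194, minus strand), was at 0.402, 0.521 and 0.331 FPKM against 0.314, 0.0868 and 0.634 FPKM. With 35 and 36 fragments in all, its ratio at equal depth was 0.846 (exact 95% interval 0.516 to 1.39, counting error only), so no difference was detectable at this depth.

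**Figure D3:**
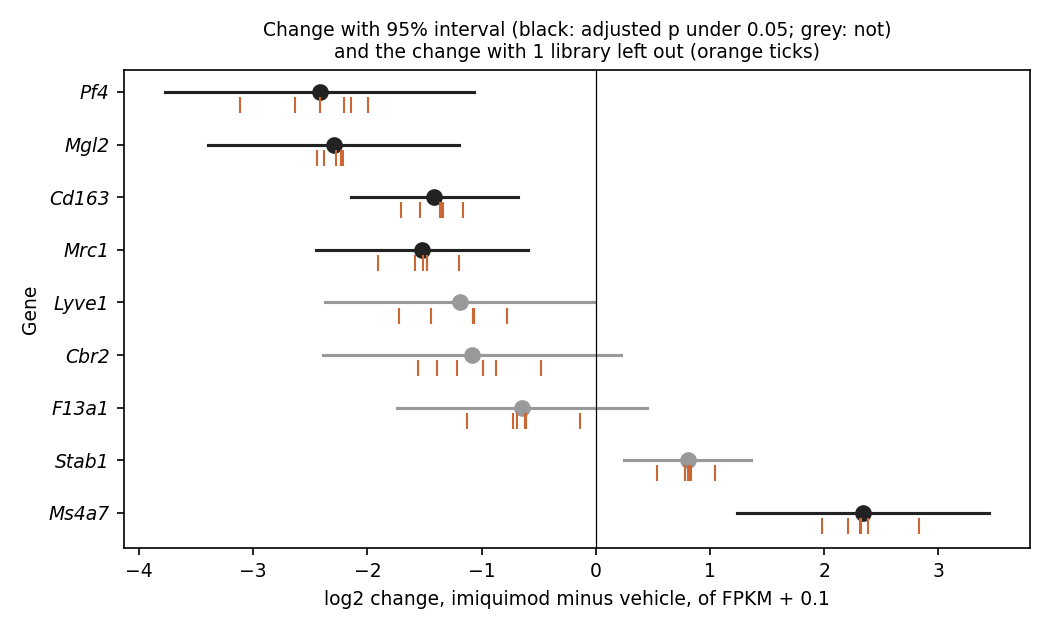
The log2 change of each of the 9 tested genes, imiquimod minus vehicle, on the log2(FPKM + 0.1) scale, with its 95% interval (black where the adjusted p was under 0.05, grey where it was not) and orange ticks for the change with each library left out in turn. Every tick lies on the same side of 0 as its gene, and the interval of Stab1 (0.25 to 1.36) excludes 0 although its adjusted p was 0.0645.

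The order of the genes changed between the groups. In vehicle cords it ran Pf4 (3.95 FPKM), Stab1 (2.01), Cbr2 (1.97), Cd163 (1.30), F13a1 and Lyve1 (both 1.09), Mrc1 (0.894), Mgl2 (0.562), Folr2 (0.418) and Ms4a7 (0.136). Only Pf4 from Stab1, Mrc1 from Mgl2 and Folr2 from Ms4a7 were neighbours whose libraries did not overlap. In imiquimod cords Stab1 (3.74 FPKM) and Ms4a7 (1.23) came first, ahead of Cbr2 (1.01), Pf4 (0.849), F13a1 (0.777), Lyve1 (0.488), Cd163 (0.449), Folr2 (0.345), Mrc1 (0.274) and Mgl2 (0.0359). Of those neighbours Stab1 and Ms4a7 did not overlap, nor did Mrc1 and Mgl2. Ms4a7 thus moved from the last to the second place. The 10 levels summed to 10.8, 15.8 and 13.6 FPKM in vehicle and 8.17, 4.67 and 14.8 FPKM in imiquimod libraries. Stab1 held 5.23 of the 14.8 FPKM in imiquimod library 3.

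The 5 genes outside the set whose centred log2 profile over the 6 libraries came nearest to the mean profile of its tested genes were Ybx2, Bmp4, Col15a1, Aoc3 and Gm6505, at root mean square differences of 0.115 to 0.191. None was called by limma. Each was lowest in imiquimod library 2. Col15a1, a collagen of vessel and nerve sheaths, was at 2.24, 2.57 and 2.41 FPKM against 1.73, 0.958 and 2.66 FPKM.

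Of 24 further genes linked to border macrophages, 15 were tested, 7 were called higher and 1 lower, and 9 were under 0.5 FPKM in every library. Their median log2 change was 1.76 over the 15 tested and 0.21 over all 24 with no filter, beside -0.01 over all genes in each case. Some of the 15, including a gene called higher, passed the filter on the imiquimod mean alone. The count and the median over the tested genes therefore lean upward. Ccr2, Itgax and Ms4a4b, called higher in other lists, passed in the same way. So did Csf2rb and a pan-macrophage gene, both called higher in lists given below, and the counts of those lists lean upward too. Siglec1 (CD169), a sialic acid receptor that interferon induces, was at 0.451, 0.684 and 0.644 FPKM in vehicle and 3.99, 3.66 and 6.75 FPKM in imiquimod libraries (2.78 ± 0.26, limma adjusted p = 0.00171). All imiquimod libraries, including library 2, were more than 5 times the highest vehicle library. Wfdc17, a small secreted macrophage protein, rose from 1.05 ± 0.396 to 8.54 ± 4.59 FPKM (2.81 ± 0.45, limma adjusted p = 0.0107), Cd63, a lysosomal tetraspanin, from 31.5 ± 1.22 to 56.6 ± 8.36 FPKM (0.84 ± 0.11, 0.00522), and Ms4a6b and Ms4a6c as described. Tgfbi, a secreted matrix protein, was at 4.47 ± 1.12 against 21.7 ± 11.7 FPKM (2.13 ± 0.40, limma adjusted p = 0.0172, but 0.0674, 0.0537 and 0.0577 without vehicle 1, vehicle 2 or imiquimod 1). Cd38, an NAD hydrolase that astrocytes also express, was the 1 gene called lower, at 11.1, 10.9 and 10.5 against 7.57, 8.01 and 6.74 FPKM (-0.54 ± 0.08, limma adjusted p = 0.00789).

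Outside the Ms4a genes, no relative of the set passed the test. Stab2, the sister of Stab1, was at 0.0642 to 0.103 FPKM in vehicle and 0.0664 to 0.107 FPKM in imiquimod libraries, and Mrc2, the sister of Mrc1 in fibroblasts, at 1.60 ± 0.311 against 2.25 ± 0.833 FPKM (0.43 ± 0.26, limma adjusted p = 0.311). Cd44, the broad hyaluronan receptor, was at 2.14 ± 0.314 against 3.51 ± 0.927 FPKM (0.67 ± 0.20, limma adjusted p = 0.0744, not called), and Tgm2, a transglutaminase like F13a1, was not called either (1.0 ± 0.29, 0.0606). Over all 20 relatives, 13 were tested, 6 were higher, all of them Ms4a genes, and 0 were lower by limma (0 also at an unadjusted p under 0.05 and by voom).

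Among 16 ligands and partners of these receptors, 12 were tested, with 2 higher and 1 lower. Hmox1, heme oxygenase 1, which degrades the heme that Cd163 brings in, was at 2.84, 4.01 and 2.80 FPKM in vehicle and 8.56, 6.41 and 9.08 FPKM in imiquimod libraries, with no overlap (1.29 ± 0.18, limma adjusted p = 0.0067). Slc40a1, the iron exporter ferroportin, was lower at 1.75, 1.5 and 1.97 against 0.803, 1.27 and 0.720 FPKM (-0.87 ± 0.22, limma adjusted p = 0.0464), a call that was lost without any 1 library but imiquimod 2 (adjusted p of 0.0905 to 0.148). Red blood cell genes summed to 511, 219 and 146 FPKM in vehicle and 70.1, 81.9 and 174 FPKM in imiquimod libraries (two-sided exact permutation p = 0.2, adjusted p = 0.327). Of the 7 tested, limma and voom called 0, while 5 were lower and 0 higher at an unadjusted p under 0.05. The part of blood content in the levels of the set was not tested.

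General macrophage genes were higher in the same cords. Of 12 pan-macrophage genes 9 were called higher and 0 lower by limma (0 lower at an unadjusted p under 0.05 and by voom), with a median log2 change of 1.86. Adgre1 (F4/80) was at 1.52, 1.90 and 1.91 FPKM against 7.97, 7.42 and 11.9 FPKM (2.27 ± 0.19, limma adjusted p = 0.00125). Csf1r, the receptor for the growth factors of microglia and macrophages, was at 18.3 ± 1.07 against 18.2 ± 2.27 FPKM (-0.01 ± 0.10, 0.952), with a sign that depended on the libraries used. Of 16 growth factors and transcription factors of macrophages, 15 were tested and 6 were higher, among them Spi1, which encodes PU.1 (2.56 ± 0.291 against 7.30 ± 2.33 FPKM, 1.43 ± 0.24, limma adjusted p = 0.0123, but 0.0533 without vehicle 1), and Irf8 (1.82 ± 0.09, 0.000298).

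Monocyte genes were highest in the imiquimod library where the fibroblast markers were also highest. The 9 genes summed to 4.64, 13.8 and 7.12 FPKM in vehicle and 67.0, 25.9 and 85.3 FPKM in imiquimod libraries, and 4 of the 8 tested were called higher. Ccr2, the receptor that draws inflammatory monocytes to tissue, was at 0.1, 0.153 and 0.144 FPKM against 1.79, 0.946 and 3.25 FPKM (3.02 ± 0.43, limma adjusted p = 0.00705). Ms4a7 and Stab1 had the same order of the imiquimod libraries as 6 of the 9 genes. The part of monocytes in their levels was not tested.

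Homeostatic microglia genes went both ways: of 14 tested, 4 were higher and 1 lower, and 0 stood in the order 3, 1, 2. At an unadjusted p under 0.05, 7 were higher and 5 lower, and voom called 6 higher and 3 lower. Every imiquimod library lay above every vehicle library in 8 of them, as in 19.8% of all genes tested. Every one lay below in 5, as in 18.0%. Tmem119 was at 10.8, 13.3 and 12.9 FPKM against 28.8, 27.8 and 25.1 FPKM (1.14 ± 0.10, limma adjusted p = 0.00125), and Fcrls at 7.74 ± 0.396 against 4.75 ± 0.526 FPKM (-0.70 ± 0.10, 0.00597).

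**Figure D4:**
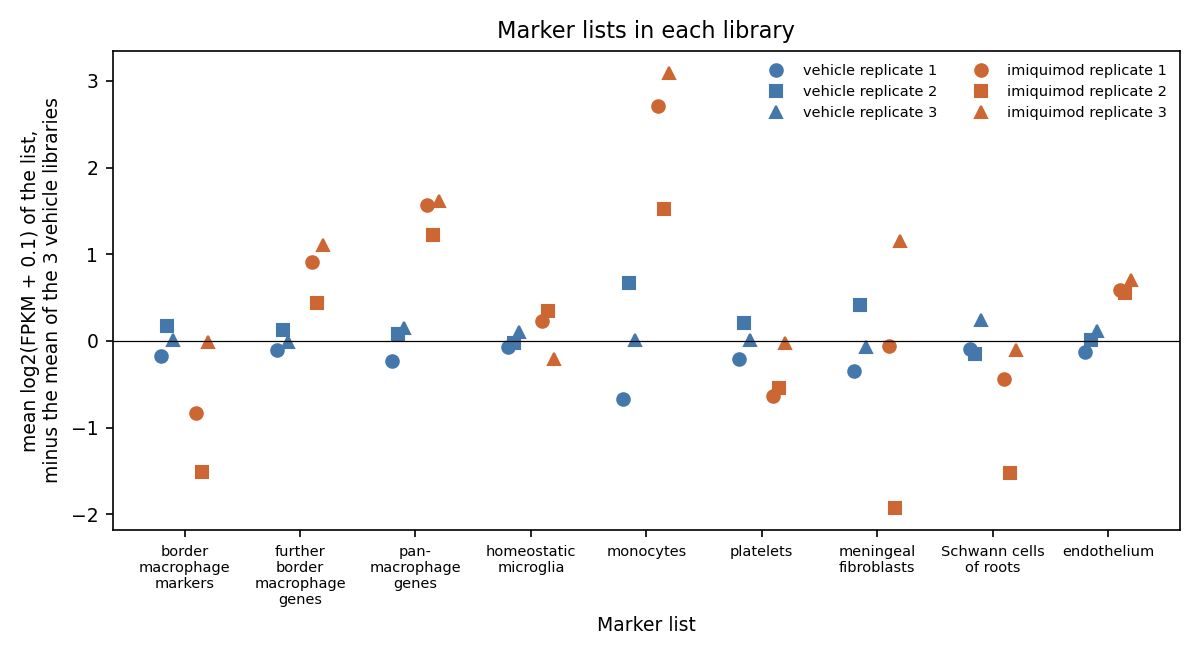
Mean log2(FPKM + 0.1) of 9 marker lists in each library, minus the mean of the 3 vehicle libraries (blue: vehicle, orange: imiquimod). Imiquimod library 2 is the lowest of its group in every list except those of homeostatic microglia and platelets. All imiquimod libraries lie above all vehicle libraries in the further border macrophage, pan-macrophage, monocyte and endothelium lists, and in no other list shown.

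Among 13 genes tied to interleukin-4, the cytokine that raises Mrc1 and Mgl2 in cultured macrophages, 6 were under 0.5 FPKM in every library. Of 13 genes 7 were tested, and Il4ra (1.5 ± 0.0924 against 3.73 ± 1.14 FPKM, limma adjusted p = 0.0132, but 0.0565 without vehicle 1) and Il10ra (2.09 ± 0.192 against 4.44 ± 0.893 FPKM, 0.00823) were higher. Arg1 (0.152, 0.0516 and 0.0459 against 0.936, 0.361 and 6.12 FPKM, limma adjusted p = 0.0692) and Chil3 (0.9, 4.44 and 1.159 against 10.3, 4.47 and 21.2 FPKM, 0.0613) were not called, though neither overlapped between the groups. Both passed without imiquimod library 2 (limma adjusted p = 0.0242 and 0.0316), and Chil3 also without vehicle library 2 (0.0365). At an unadjusted p under 0.05, 4 of the 7 were higher and 1 was lower, the gene annotated as Il4. Il4 was at 10.5, 9.75 and 10.6 FPKM in vehicle and 8.70, 8.20 and 9.03 FPKM in imiquimod libraries, with no overlap. Its log2 change of -0.25 ± 0.07 did not pass (limma adjusted p = 0.0577). Which transcripts of the annotated locus, chr11:53602982-53618669, these reads came from was not tested, so the values are not a measure of the cytokine.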

How the data were processed

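The deposited values are FPKM for 54532 Ensembl genes in each of the 6 libraries. The submitters' processing notes list, with no role for any of them, DESeq2 1.16.1, HISAT2 2.0.5, featureCounts 1.5.0-p3, and the mm10 assembly. Which annotation release and strand setting were used, and how multiply matching reads were counted, is not given in the sources used here. Symbols matched 54409 identifiers, and GENCODE M21 exon lengths matched 54495.

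Multiplied by exon length, 97.4% to 97.6% of values under 1000 fragments fell within 0.05 of whole fragments, which gave fragments per gene. The library totals implied this way kept a near constant ratio (SD 0.0089%) to size factors of the median-of-ratios kind, from which it is inferred that the FPKM were scaled by such factors. Exact 95% intervals of fragment ratios cover counting error only. Groups were compared with limma 3.58.1 (mean-variance trend) in R 4.3.3 on log2(FPKM + 0.1), a scale that understates changes of low genes, for genes with a mean of at least 0.5 FPKM in either group, with Benjamini-Hochberg adjustment over all genes. A log2 change is imiquimod minus vehicle, ± SE. Summed FPKM of marker lists went through exact permutation tests (two-sided), where 3 against 3 libraries allow no p below 0.1. The fit was tested on simulated data. Other steps ran in Python 3.11.15 with SciPy 1.17.1, pandas 2.3.3 and NumPy 2.4.6, and plots with matplotlib 3.10.9. No 2 libraries held identical values.

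The 10 genes and the lists were chosen with earlier results of these data known. Beside the 10 genes, the named genes of each list were up to 6 with the smallest p and up to 3 with the highest level, and any relative, ligand or partner could be named. Gp1bb, Ccl21a and Mmrn1 fall outside this rule and were chosen after their values were seen. One gene of the root marker list is not reported here and was left out of that list. Alternatives changed the pseudocount, the filter, the scaling, the library weights and the tool (voom on recovered fragments), added a replicate block, a fibroblast covariate or length and GC trends, or left out 1 library.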

Additional observations from a re-analysis of the deposited data

How the results depend on the processing

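Over 159 values of the tested genes of the set under alternatives, no log2 change reversed, 28 lost a call and 7 gained one. With 4 lower and 1 higher in the comparison as reported, the number lower was 1 with no filter on low values and 2 with the replicate block. It was 3 with a pseudocount of 0.01. With a mean of at least 0.5 FPKM over all 6 libraries it was 3, and Mgl2 was not tested there. With a mean of at least 1 FPKM in either group it was 2, and neither Mrc1 nor Mgl2 was tested there. The number higher was 2 with library quality weights, with voom, with the fibroblast covariate and with length and GC trends removed, Stab1 being added each time. With 1 library left out, a design with 5 libraries and fewer degrees of freedom, 0 to 5 genes were lower and 0 to 2 higher. With any 1 vehicle library left out both counts were 0 by limma. With 1 imiquimod library left out, 1 to 5 were lower and 0 to 2 higher. All genes called went from 2326 to 1330 with the replicate block and to between 847 (without vehicle 1) and 2986 (without imiquimod 2) with 1 library left out. Same-numbered libraries did not deviate together (correlations of 0.0186, -0.097 and -0.0331 across genes), so the numbers were not taken as pairs, and the block took away the calls of Mrc1 and Mgl2. Among other genes named, Csf1r changed sign without vehicle 3 (0.03) and without imiquimod 3, with a range from -0.0779 (without imiquimod 2) to 0.0942 (without imiquimod 3), and Dcn, a fibroblast marker, went from -0.22 (without imiquimod 3) to 1.45 (without imiquimod 2). The cause of these shifts was not tested. Depth limits Mgl2 (5 fragments in the imiquimod libraries), Folr2 (35 and 36), Ms4a7 (33 in the vehicle libraries) and Pf4 (42 in the imiquimod libraries).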
